A study of Mus musculus with 8 samples.

Results

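The comparison concerns the step from late gestation to the day after birth in the mouse adrenal gland, read from regions carrying acetylated lysine 27 of histone H3 (H3K27ac). Broad peaks of the E18.5 list and of both P1 lists on chromosomes 1 to 19 were merged where they shared at least 1 base, which gave 130774 regions, of 147806 obtained in the same way from all 7 ChIP lists of the series. Of the 130774 regions, 74756 were called at E18.5 and in neither P1 list (E18.5-only, 57.2%), 8483 in both P1 lists and not at E18.5 (P1-only, 6.49%) and 23338 in all 3 lists (common, 17.8%). The E18.5 library was made from a pool of 30 adrenal glands of embryos of undetermined sex. On postnatal day 1 (P1), 22 glands were pooled for the female library and 22 for the male library. Later lists were used to follow the regions, with 12 pooled glands of each sex at 2 weeks and 6 of each sex at 12 weeks. All mice were C57BL/6J, an inbred strain, and carried no labelled transgene or treatment. There was 1 library for each age and sex, so the spread between replicates of a group could not be measured. E18.5 has no other library, −log10 q is comparable only within a list, and no test between E18.5 and P1 was made. Whole glands were used, so more cells of a type and more mark per cell cannot be told apart.

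H3K27ac is deposited by acetyltransferases such as p300 and CBP and lies at active promoters and enhancers. The adrenal gland joins a steroid-producing cortex, specified by the nuclear receptor SF-1 (Nr5a1), with a medulla of catecholamine-producing chromaffin cells derived from the neural crest. At birth the gland meets the metabolic demands of life outside the womb. The comparison asks which acetylated regions are found on one side of birth and not on the other.

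The tissue label was checked on defining genes, with the authors' −log10 q of the strongest peak within 1 kb of a coding start. Star, which moves cholesterol into mitochondria, had 4.48 at E18.5, 3.13 in P1 females and 5.57 in P1 males. Nr5a1 had 6.39, 3.55 and 6.73. Cyp11a1, the side-chain cleavage enzyme that starts steroid synthesis, had 2.67, 2.48 and 4.66. The catecholamine genes Th (1.97, 2.11 and 1.84) and Dbh (1.998, 2.01 and 1.499) were weaker. All 5 promoters were called in all 3 lists.

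On chromosomes 1 to 19 the E18.5 list held 106203 peaks covering 91.2 Mb, against 47968 peaks and 58.1 Mb in P1 females and 43638 peaks and 55.4 Mb in P1 males. At a −log10 q of 5 or more the lists were similar in size, with 10071, 8660 and 10275 peaks. The surplus at E18.5 therefore lay among weak peaks. The lists give no read counts, so depth is unknown, and absence of a call does not show absence of acetylation. The part of depth in the size of the classes was not tested. With the 3 lists shortened to the strongest peaks covering 55.4 Mb each, 29119 regions were E18.5-only, and with the strongest 43638 peaks of each, 21524.

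The 3 classes differed in form. E18.5-only regions were narrow, with a median width of 533 bp, against 1048 bp for P1-only and 2028 bp for common regions. Narrowness was not particular to E18.5: regions called in 1 P1 list alone had medians of 453 bp in females and 403 bp in males. E18.5-only regions also stood low in their list, at a median percentile of 39.95 of the E18.5 −log10 q, whereas common regions stood at 87.9 in the same list. P1-only regions stood at medians of 43.6 in females and 36.9 in males. A coding transcription start lay within 1 kb of 4.09% of E18.5-only regions (95% Wilson interval 3.95% to 4.24%, counting error only, as for all intervals here), 3.395% of P1-only regions (3.03% to 3.80%) and 48.4% of common regions (47.8% to 49.1%). Both one-sided classes were thus mostly distal. With lists limited to a −log10 q of 5 or more, 74.7% of E18.5-only and 41.7% of P1-only regions were promoter regions. In that setting a weaker peak at the other age counts as absent. Among regions with at least 5 and no peak at all at the other age, 17.3% of E18.5-only and 28% of P1-only regions were promoter regions. The order of the promoter shares of the one-sided classes is not firm: with at least 50% of a region covered by peaks, the P1-only share was the higher by 13.6 percentage points. Taking only 1 P1 library gave 16533 P1-only regions without the females and 20971 without the males.

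**Figure D1:**
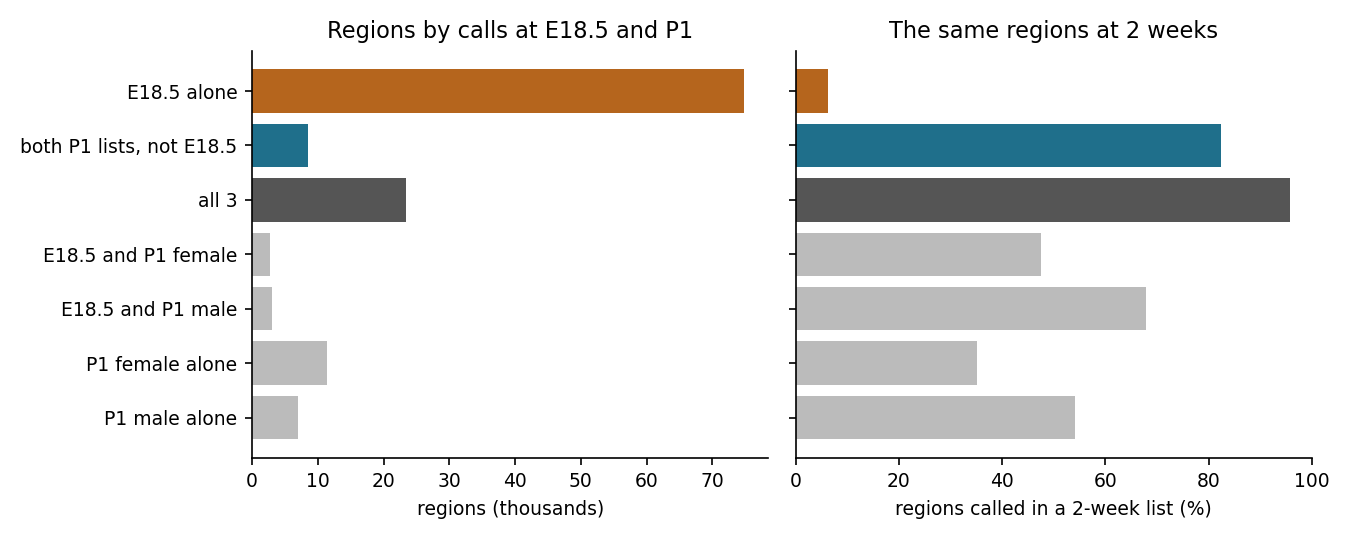
Regions of chromosomes 1 to 19 by the lists that call them: the left bars give the number of regions per pattern and the right bars the percentage of the same regions called in at least 1 of the 2-week lists. The E18.5-only bar is the longest on the left (74756 regions) and the shortest on the right (6.26%).

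Most P1-only regions were called at later ages and most E18.5-only regions were not. A 2-week list called 82.4% of P1-only regions (6987 of 8483), 95.7% of common regions and 6.26% of E18.5-only regions (4680 of 74756). At 12 weeks the shares were 87.6%, 96.7% and 13.0%. No later list called 86.0% of E18.5-only regions, against 8.88% of P1-only and 2.16% of common regions, and all 4 later lists called 2.11%, 60.1% and 87.9%. With all lists limited to a −log10 q of 5 or more the levels were higher, with 43.1% of E18.5-only and 95.2% of P1-only regions called at 2 weeks and 67.8% and 98.6% at 12 weeks, so most E18.5-only regions of that set were called at 12 weeks. That set counts a weaker P1 peak as absent. Of E18.5-only regions with at least 5 and no P1 peak at all, 19.4% were called at 2 weeks and 14.3% at 12 weeks. As a scale, the later lists covered 2.76% to 5.25% of the bases of chromosomes 1 to 19. Regions called in 1 P1 library alone were also called more often at 2 weeks than E18.5-only regions, at 35.2% for females and 54.1% for males. The difference between the one-sided classes was 76.1 percentage points at 2 weeks and 74.5 at 12 weeks. P1-only regions are wider than E18.5-only regions, but regions of 1 P1 list alone are narrower (medians 453 and 403 bp). In bins of equal width (1 kb) the differences between the one-sided classes were 76.7 and 73.6.

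The contrast was present in each bin of −log10 q. Bins of different lists do not stand for equal strength, because −log10 q is comparable only within a list. P1-only regions also needed a call in both P1 lists and E18.5-only regions in the E18.5 list alone, so the classes are not matched. Among the 98 E18.5-only regions with a −log10 q of at least 5, 77.6% (68.3% to 84.7%) were called in no later list. Among the 50 P1-only regions with at least 5 in both P1 lists, all 50 were called in all 4 later lists. The share of P1-only regions called in all 4 later lists rose with strength, from 48.8% at a −log10 q of 1 to 1.5 to 91.9% at 3 to 5. For E18.5-only regions it went from 1.63% to 4.86% over the same range. With the females left out the difference in 2-week calls between the classes was 61.6 percentage points, and with the males left out 47.1, against 76.1 with both. With E18.5 and P1 lists of equal length, 8.34% of E18.5-only and 84.9% of P1-only regions were called at 2 weeks. With the later lists shortened to that length too, an alternative chosen after seeing the data, the differences fell to 53.0 points at 2 weeks and 25.8 at 12 weeks, where 28.9% of P1-only and 3.04% of E18.5-only regions were called.

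**Figure D2:**
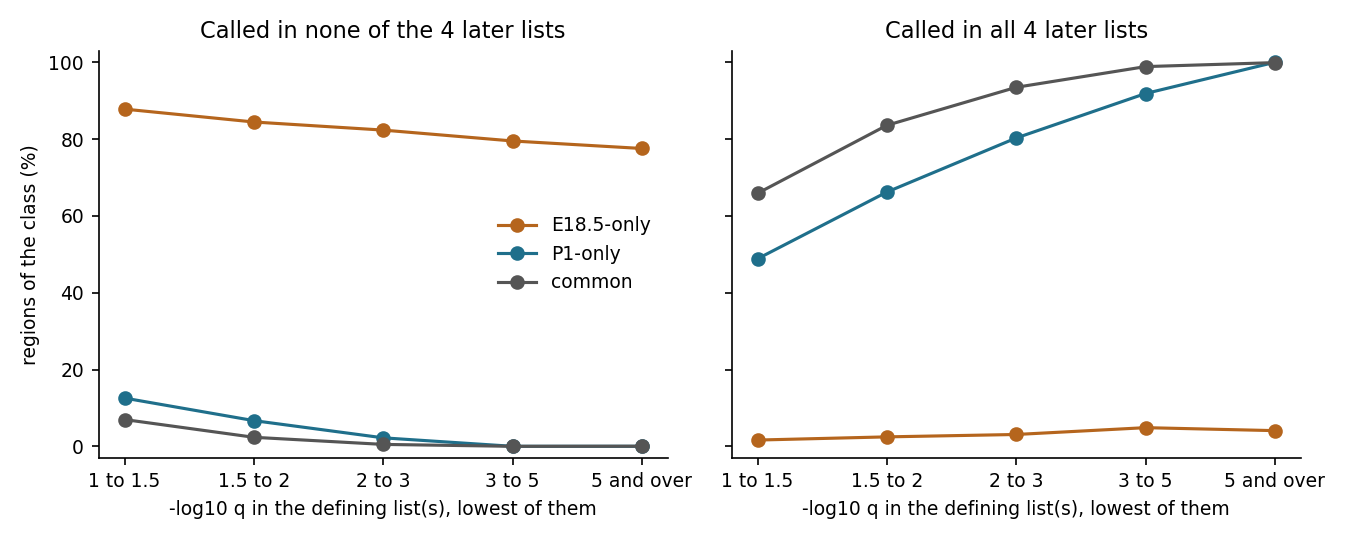
Percentage of the regions of each class that no later list (left) and all 4 later lists (right) call, by the −log10 q in the list or lists that define the class (the lowest of them). The E18.5-only line stays at 77.6% or above on the left over all bins, while P1-only and common lines meet near 100% on the right.

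Base composition separated the classes. The median GC of the central 500 bases was 50.8% in E18.5-only, 46.0% in P1-only and 53.8% in common regions. By GC band, the P1-only share of all regions fell from 18.9% below 40% GC to 8.45% at 45% to 50%, 1.31% at 55% to 60% and 0.0373% at 65% or more (2 of 5358 regions). E18.5-only regions peaked in the middle, at 68.7% of regions with 50% to 55% GC. Within a band the later calls stayed apart: between 40% and 45% GC, 10.1% of E18.5-only and 91.3% of P1-only regions were called in a later list, and between 50% and 55%, 14.5% and 90.2%. GC content is known to influence amplification and sequencing of libraries, and its part in the class sizes was not tested.

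**Figure D3:**
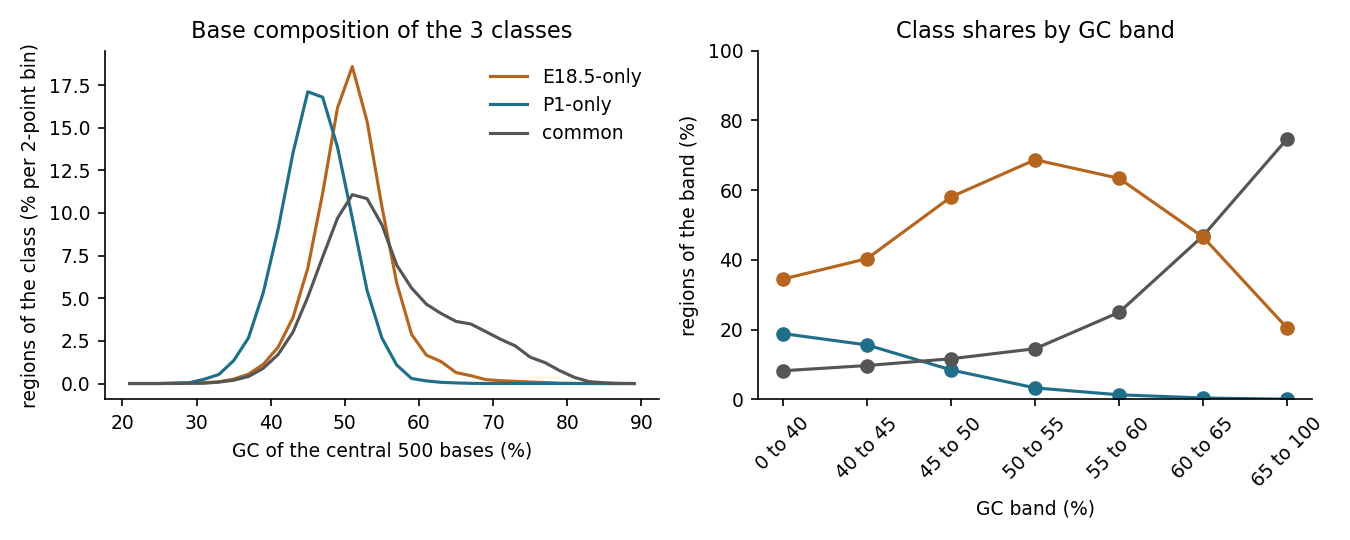
Left, distribution of GC in the central 500 bases for the 3 classes, as percentage of the class per bin of 2 points. Right, percentage of all regions of a GC band that falls in each class; P1-only regions go from 18.9% in the lowest band to 0.0373% in the highest.

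To show what such promoters look like, the 150 bases before a coding start are printed for some of the strongest promoters of each class, all without an annotated exon there (GRCm38, gene strand, 5′ to 3′, CG dinucleotides in capitals). The E18.5-only promoters are those of Scn8a, a neuronal sodium channel, Rapgefl1 and Fbxo41.
Scn8a, chr15:100870533-100870682, plus strand: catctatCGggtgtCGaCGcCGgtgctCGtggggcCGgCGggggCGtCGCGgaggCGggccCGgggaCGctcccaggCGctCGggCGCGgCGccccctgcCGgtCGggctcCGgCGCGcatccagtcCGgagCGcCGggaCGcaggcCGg
Rapgefl1, chr11:98836635-98836784, plus strand: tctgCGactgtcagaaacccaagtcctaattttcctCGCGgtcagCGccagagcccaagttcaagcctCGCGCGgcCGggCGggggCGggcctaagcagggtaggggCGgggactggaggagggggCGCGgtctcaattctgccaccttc
Fbxo41, chr6:85502995-85503144, minus strand: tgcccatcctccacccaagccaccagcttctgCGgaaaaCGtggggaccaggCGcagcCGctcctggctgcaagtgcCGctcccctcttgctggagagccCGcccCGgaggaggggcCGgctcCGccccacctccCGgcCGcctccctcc
The P1-only promoters are those of Ttc23, Casp4 (an inflammatory caspase), Trim12a (a TRIM protein of the Trim5 family) and Mrpl45 (a mitochondrial ribosomal protein).
Ttc23, chr7:67647260-67647409, plus strand: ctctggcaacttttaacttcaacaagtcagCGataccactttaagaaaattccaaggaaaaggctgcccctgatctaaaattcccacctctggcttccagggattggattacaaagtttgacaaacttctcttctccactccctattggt
Casp4, chr9:5308699-5308848, plus strand: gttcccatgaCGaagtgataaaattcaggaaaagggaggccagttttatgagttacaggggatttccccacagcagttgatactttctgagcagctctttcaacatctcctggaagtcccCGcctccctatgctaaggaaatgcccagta
Trim12a, chr7:104315464-104315613, minus strand: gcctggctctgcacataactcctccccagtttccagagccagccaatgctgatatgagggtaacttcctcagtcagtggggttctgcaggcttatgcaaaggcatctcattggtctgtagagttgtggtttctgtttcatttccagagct
Mrpl45, chr11:97315566-97315715, plus strand: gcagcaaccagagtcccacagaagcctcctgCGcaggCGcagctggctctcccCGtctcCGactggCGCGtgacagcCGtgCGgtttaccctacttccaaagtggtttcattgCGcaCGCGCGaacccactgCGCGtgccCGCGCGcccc
The 3 E18.5-only windows held 28, 13 and 11 CG dinucleotides. The windows of Ttc23, Casp4 and Trim12a held 1, 2 and 0, and that of Mrpl45 held 17. The windows not printed overlap between the classes, with 10, 7, 2 and 1 at the E18.5-only promoters of Gm9008, Aunip, Gm10273 and 4930467E23Rik, and 13, 6, 1 and 1 at the P1-only promoters of Pus3, Gm11042, Card6 and Ifit3b. Over all genes the classes differed in their middle values, with a median of 16 CG in the 500 bases around the most upstream coding start for genes with an E18.5-only promoter, 7 for genes with a P1-only promoter, 39 for genes called in all 3 lists and 4 for genes called in none.

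The 8 P1-only promoter regions with the highest ranks stood at percentiles of 83.0 to 90.8 of −log10 q in the lower of their P1 ranks. Card6, whose product carries a caspase recruitment domain, had a −log10 q of 8.75 in P1 females and 14.0 in P1 males, and 12.7 to 30.8 in the later lists (chromosome 15, 5107648 to 5109035, over coding exon and UTR). Ttc23 had 12.6 and 10.6, with 8.19 to 29.3 later (chromosome 7, 67647437 to 67648630). Trim12a had 7.91 and 11.7, with 6.65 to 20.5 later (chromosome 7, 104313832 to 104316126). These 3 promoters were called in every postnatal list and missing at E18.5. Mrpl45 had 8.99 and 12.8 (chromosome 11, 97314896 to 97316532) and Casp4 had 5.87 and 7.86 (chromosome 9, 5307629 to 5309679). Gm11042, a predicted gene, had 8.91 and 15.6. Ifit3b, an interferon-induced tetratricopeptide repeat gene, had 6.36 and 9.58, but its centre is repeated elsewhere in the genome. All 8 P1-only promoter regions with the highest ranks were called in all 4 later lists. The eighth, at Pus3 and Ddx25 (7.51 and 10.6), lies beside a separate E18.5 peak with 1.69, so these genes count as called in all 3 lists.

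The 8 strongest E18.5-only promoter regions stood at percentiles of 91.2 to 94.96 of the E18.5 list. The region at Sfi1, a centrosomal protein gene, was the strongest with a −log10 q of 11.5 (chromosome 11, 3192147 to 3197999), and 81.6% of its centre was repeat-masked. Aunip, which binds Aurora A kinase, had 6.62 at E18.5 in a region of 224 bp, no P1 peak, and 1.24 to 6.15 in 3 later lists. Rapgefl1 had 5.77 at E18.5, 4.36 to 4.43 in 3 later lists and none at P1. Scn8a had 5.96 and 3.14 in 1 later list, and a separate weak peak in P1 males (1.68) lies within 1 kb of a coding start. Fbxo41 had 5.91 and was called again in 2 later lists. The remaining 3 regions, at Gm9008 (6.07), 4930467E23Rik (5.86) and Gm10273 (5.70), had centres that are repeated elsewhere in the genome, and of these Gm9008 was called in all 4 later lists (1.67 to 2.53) and the other two in none. Of the 8 regions, 5 were thus called again at a later age.

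A centre was counted as repeated where at least 3 of 5 31-base words around it occur more than once in chromosomes 1 to 19 and X. That held for 14.1% of E18.5-only, 1.13% of P1-only and 2.28% of common regions, and for 42 of the 98 E18.5-only regions with a −log10 q of at least 5 (42.9%, 33.5% to 52.7%). Repeat-masked sequence filled over 50% of the centre of 13827 of the 74756 E18.5-only regions, against 2.89% of P1-only and 2.17% of common regions. How reads of repeated sequence were placed is not given in the sources used here, so positions of such regions are uncertain. The 8 strongest E18.5-only distal regions all had 0 later calls. The top one, 357402 bases from Zwint on chromosome 10, reached a −log10 q of 60.1, and 77.8% of its centre was repeat-masked. Another, 101644 bases from Esp38 on chromosome 17 (17.2), covers noncoding genes AY036118, Gm26917 and Gm42418. Its centre was not repeated by the count above. That count misses copies outside the assembled sequence of chromosomes 1 to 19 and X, so the region is not shown to be unique. Those nearest Txndc11 (23.0), Dpp10 (17.5), Gm8797 (17.1), Filip1l (13.2) and Trim52 (13.2) had repeated centres.

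The strongest P1-only distal regions were called in all 4 later lists without exception, and 7 of the 8 had no repeated centre. The region nearest Kif2c, 27928 bases away on chromosome 4 (117210567 to 117210985), had a −log10 q of 25.5 in P1 females and 24.4 in P1 males and covers the small noncoding gene Gm23287. The one nearest Wdr5, a subunit of histone methyltransferase complexes, had 17.7 and 21.8 (chromosome 2, 27538834 to 27541442). A region 8116 bases from Fosb, an AP-1 subunit induced by stimulation, had 15.9 and 17.5 (chromosome 7, 19300836 to 19301484). Regions nearest Mbnl1 (11.2 and 16.7), Diaph1 (13.7 and 14.5), Klf6 (10.6 and 10.8) and Kitl (7.72 and 13.0) lay in introns or between genes. Kitl encodes the ligand of the receptor Kit, and Klf6 is a zinc-finger factor. The exception with a repeated centre is nearest Cep78 (7.997 and 11.5). The later values of these 8 regions ranged from 5.27 to 37.0.

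Distal P1-only regions carried some transcription factor motifs more often. The AP-1 letters TGANTCA, searched on both strands in the central 500 bases, were found in 21.4% of 8195 P1-only, 16.6% of 12032 common and 12.4% of 71698 E18.5-only distal regions, and in 14.6% of all 115010. Read in reverse order as a control of the same composition, the letters were found in 14.3%, 11.1% and 10.9%. AP-1 is the family of Fos and Jun dimers. Within regions of 40% to 45% GC the AP-1 shares were 21.6% in P1-only and 13.9% in E18.5-only regions, within 45% to 50% GC 21.1% and 14.4%, and within 50% to 55% GC 21.8% and 12.1%. E18.5-only regions are often about as narrow as the window, which can then include bases beside the region. With windows of 200 bases the difference was 4.45 percentage points, against 9.06 with 500.

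Of the regions among the strongest P1-only distal ones, those nearest Wdr5 and Klf6 each held 1 match to the AP-1 letters. These regions were 2609 and 2049 bp wide, the widest of that set. Both matches lay outside the central window searched for the AP-1 shares above, so neither region is counted there as holding the letters. The matches are shown in capitals with 45 bases on either side (GRCm38).
Wdr5-nearest region, chr2:27541126-27541222, plus strand: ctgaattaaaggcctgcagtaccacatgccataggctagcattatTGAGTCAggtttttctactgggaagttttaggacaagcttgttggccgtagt
Klf6-nearest region, chr13:5713114-5713210, plus strand: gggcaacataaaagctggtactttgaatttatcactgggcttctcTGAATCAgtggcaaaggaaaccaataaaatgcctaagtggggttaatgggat
The capitals mark a match of letters only, and other regions of the set without them are not shown to lack binding.

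Over all distal regions, motifs of other factors active in the adrenal gland went in both directions. The E-box letters CAGCTG, bound by HAND and ASCL factors, were less frequent in P1-only (29.3%) than in E18.5-only (31.6%) and common regions (34.4%), against 31.4% of all. Within GC bands the direction was the opposite, with 23.8% of P1-only and 21.9% of E18.5-only regions between 40% and 45% GC, 31.2% and 28.4% between 45% and 50%, and 39.2% and 34.8% between 50% and 55%. The cyclic AMP response element TGACGTCA gave 0.549%, 0.916% and 0.623%, against 0.768% of all, but between 40% and 45% GC the P1-only share (0.402%) was above the E18.5-only share (0.289%), with overlapping intervals. Both of these pooled differences turned in sign at a −log10 q of 5 or more. The motifs of NR5A1, GATA, TEAD and NR3C1 followed the order of AP-1 when all distal regions were pooled. The NR5A1 letters CAAGGTCA, bound by SF-1, were found in 5.05% of P1-only, 4.69% of common and 3.63% of E18.5-only distal regions, and in 4.07% of all (reversed letters 1.95% of P1-only regions and 1.97% of all). Between 40% and 45% GC the NR5A1 shares of P1-only (4.14%, 3.42% to 4.99%) and E18.5-only regions (3.54%, 3.12% to 4.01%) overlapped within their intervals. They were apart between 45% and 50% GC (5.98%, 5.22% to 6.84%, against 3.598%, 3.36% to 3.85%) and between 50% and 55% (5.22%, 4.17% to 6.52%, against 3.90%, 3.68% to 4.12%). GATA letters AGATAAG gave 8.07%, 6.82% and 4.84%, and 5.88% of all (reversed 5.25%, 3.90% and 3.99%). Within GC bands common regions held GATA letters more often than P1-only regions between 40% and 45% (10.1% and 9.04%) and between 50% and 55% (6.78% and 5.66%), and in the latter band the P1-only and E18.5-only intervals overlapped (4.56% to 7.00% and 4.32% to 4.80%). TEAD letters ACATTCCA gave 3.71%, 2.83% and 1.95%, and 2.39% of all (reversed 1.16%, 1.03% and 1.15%), and between 45% and 50% GC common regions (3.33%) were above P1-only regions (3.003%). The palindromic glucocorticoid receptor motif (NR3C1) gave 1.87%, 1.54% and 0.902%, and 1.12% of all (reversed 1.00%, 0.814% and 0.880%). Among strong regions absent from the other age the P1-only minus E18.5-only difference was −1.23 percentage points. That set holds only 98 E18.5-only and 50 P1-only regions, promoters included, so the sign can rest on very few regions. The CTCF motif was less frequent in P1-only regions, at 2.75% against 4.11% in E18.5-only, 3.95% in common and 3.76% of all distal regions, but with each list limited to a −log10 q of 5 or more it was the more frequent there by 2.24 percentage points, and between 50% and 55% GC the shares were 4.06% in P1-only and 3.82% in E18.5-only regions. NR5A1 letters end in AGGTCA, which other nuclear receptors also bind.

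Genes with many P1-only distal regions nearest to them were led by Nfib, a nuclear factor I gene, with 22 P1-only of 63 distal regions (4 E18.5-only, 9 common). Lpp had 19 of 73 and Rad51b 19 of 58, the latter beside Zfp36l1, an mRNA decay factor, with 17 of 102. Gm10295 had 18 of 50, Dlc1 17 of 46, Arid5b 16 of 36 and Irf2bp2 15 of 53. None of these P1-only regions had a repeated centre, and 52.6% to 83.3% were called in all 4 later lists. Over all genes, P1-only regions made up 7.13% of distal regions, so these genes were chosen at the top of that distribution and their shares are no separate evidence.

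Among E18.5-only distal regions at or above the 75th percentile of the E18.5 list, the leading genes fell into repeated and unrepeated loci. Gm15319 (21 regions), Snurf (20), Tcp10c (17), Gm21119 (15), Gm31371 (15) and Gpm6a (14) were the repeated ones, with repeated centres in 14 or more regions of each. Fam19a5, a secreted neural protein gene, had 13 regions with 0 repeated centres, and 70 of its 71 distal regions were E18.5-only. All 13 were called in no later list. Zfhx3, a zinc-finger homeobox factor, had 13 regions, of which 2 were called in all 4 later lists, and among its 100 distal regions 55 were E18.5-only, 3 P1-only and 26 common.

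At the level of genes, 2259 of 20696 coding genes had a promoter peak at E18.5 and in neither P1 list (10.9%), 177 had one in both P1 lists and not at E18.5 (0.855%) and 11929 had one in all 3 lists (57.6%). Of the 2259, 33.4% were called in at least 1 later list and 6.55% in all 4. Of the 177, 92.1% were called in at least 1 later list and 62.7% in all 4. Only 28 of the 2259 reached a −log10 q of at least 5 at E18.5, and 18 of the 177 did so in both P1 lists. With lists of equal length the counts were 1276 and 276. With 1 P1 library in place of both, 267 genes were P1-only without the females and 274 without the males. A one-sided gene can lie at the edge of a region called at both ages, which held for 57 of the 2259 and 25 of the 177. The promoter classes of gene lists were read against these shares of all genes.

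Cortical genes were mostly shared. Of 19 steroid synthesis genes, 17 promoters were called in all 3 lists, 0 at E18.5 only and 0 at P1 only. Hsd3b1, which makes progesterone from pregnenolone, had 2.40 at E18.5, 2.23 in P1 males and no peak in P1 females. Of 16 cholesterol synthesis and uptake genes, 15 were called in all 3. Of 16 genes of the capsule, zona glomerulosa and progenitors, 13 were called in all 3. Agtr1b, an angiotensin receptor, was P1-only, with 1.59 in females and 1.55 in males and 1.93 to 4.09 in the later lists. Rspo1, a Wnt potentiator, was E18.5-only with 1.36.

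Of the medullary and neural lists, the neuron genes had the largest count called at E18.5 only. Of 18 chromaffin and sympathetic genes, 17 had a promoter peak at E18.5, 9 in P1 females and 14 in P1 males, and 3 were E18.5-only against 0 P1-only, near the share of all coding genes (10.9% and 0.855%). The 3 were Pnmt, which makes adrenaline (1.97), Chga, a core protein of secretory granules (2.79), and the receptor Ret (1.84). Pnmt was called again in 3 later lists and Chga in 2, whereas Ret was called in none. Without the P1 males 8 of the 18 were E18.5-only, so the count rests on that library. Of 10 neuron genes, 7 were E18.5-only and 0 P1-only. They were Elavl3 (3.01), Prph (2.50), Stmn2 (2.11), Tubb3 (2.09), Nefl (1.89), Nefm (1.64) and Snap25 (1.51). Of 9 Schwann cell and glia genes, 3 were E18.5-only: Foxd3 (2.05), Sox10 (1.77) and Gfap (1.68), whose region a P1 female peak also touches (1.45). The −log10 q values of these 13 promoters lay between the percentiles 47.2 (Snap25) and 86.2 (Elavl3) of the E18.5 list, and none reached 5. Of the 7 neuron genes only Snap25 returned in more than 1 later list. With lists of equal length 6 neuron genes were E18.5-only.

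Genes of other tissues that a dissected gland can carry were called in part. In the kidney, liver, epithelium, immune, fat cell and muscle lists (10 to 14 genes), 4 to 7 genes had a promoter peak at E18.5. The E18.5-only shares of these lists were 20% to 33.3%, above the 10.9% of all coding genes. In lists this small such shares rest on 2 to 4 genes. The endothelial list had 0 of 14 E18.5-only and the erythroid list 1 of 11. Of 12 kidney genes, 4 had a promoter peak at E18.5 (among them Lhx1 with 1.47, Pax8 with 1.36 and Pax2 with 1.13) and 0 in any P1 or later list. The remaining 8 kidney promoters were not called in the 3 lists. With lists of equal length 1 kidney promoter was E18.5-only, and with equal numbers of peaks 0 were. Among distal regions nearest kidney genes, 61 of 64 were E18.5-only (95.3%), and nearest neuron genes 76 of 82 (92.7%), against 62.3% of all distal regions, but 43 of those 76 lay nearest Rbfox3 alone. The other-tissue lists did not all stand above that share, with 55.6% for endothelial, 56.1% for liver, 57.1% for erythroid and 66.1% for epithelial genes, and 68.4% for fat cell, 71.7% for immune and 79.5% for muscle genes. Of 10 liver genes, Apoa1 (2.58) and Ahsg (1.41) were E18.5-only, a count near the share of all genes, and P1 peaks touch the region of Apoa1 (1.29 and 1.09). Of 10 epithelial genes, Epcam (1.95), Krt5 (1.63) and Cdh1 (1.42) were. Of 14 immune genes, 6 had a peak at E18.5, 0 in P1 females and 4 in P1 males, and H2-Ab1 (2.47) and Tyrobp (1.39) were among the 3 called at E18.5 only, although a P1 female peak touches the region of H2-Ab1 (1.51). As for liver, 2 genes were E18.5-only in each of the fat cell and muscle lists, namely Adipoq (1.93) and Cidea (1.45) of 10 fat cell genes and Myf5 (1.38) and Ckm (1.30) of 10 muscle genes, while Actg2 was P1-only (1.68 and 1.14). The part of tissue adhering to the glands in the E18.5-only class was not tested.

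Genes that respond to hormones, oxygen, fasting and growth were called on both sides of birth. All 15 glucocorticoid response genes, all 18 cell cycle genes and 14 of 15 hypoxia response genes had promoter peaks in all 3 lists, as did 15 of 16 clock genes and 14 of 16 fetal and growth genes. Of 16 genes of fasting, fat oxidation and gluconeogenesis, 13 were called in all 3, and Pck1, a gluconeogenic enzyme, was E18.5-only (1.43). Of 20 immediate early and stress genes, 19 were called in all 3. Egr3, a zinc-finger factor induced by stimulation, had a promoter peak at E18.5 (5.98) and in all 4 later lists (4.77 to 12.8). Its P1 peaks (1.78 and 2.34) overlap the E18.5 peak but end more than 1 kb from the start, so its region is common. P1-only shares of distal regions nearest these genes lay on both sides of the 7.13% of all distal regions. They were 4.23% for cell cycle and 4.84% for fetal and growth genes, and 9.17% to 9.89% for clock, hypoxia and fasting genes. P1-only regions made up 29 of 235 distal regions nearest glucocorticoid response genes (12.3%) and 32 of 294 nearest immediate early and stress genes (10.9%). Of these 32, Myc had 12 and Fosl2 had 8. The differences between lists were not tested.

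Mesenchymal, Hox and endothelial genes were also mostly common, against 57.6% of all coding genes. Of 18 extracellular matrix and mesenchyme genes, 17 were called in all 3, and Col3a1, a fibrillar collagen, was P1-only with 4.78 in females and 4.65 in males. Its promoter had 2.53 to 3.68 in 3 later lists. Of 24 Hox genes, 19 were called in all 3 and Hoxd4 was E18.5-only (1.59). Of 14 endothelial genes, 13 were called in all 3. Of 11 erythroid genes, 7 were called in all 3, near that share, 1 was P1-only and 1, Hemgn, was E18.5-only (1.91).

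**Figure D4:**
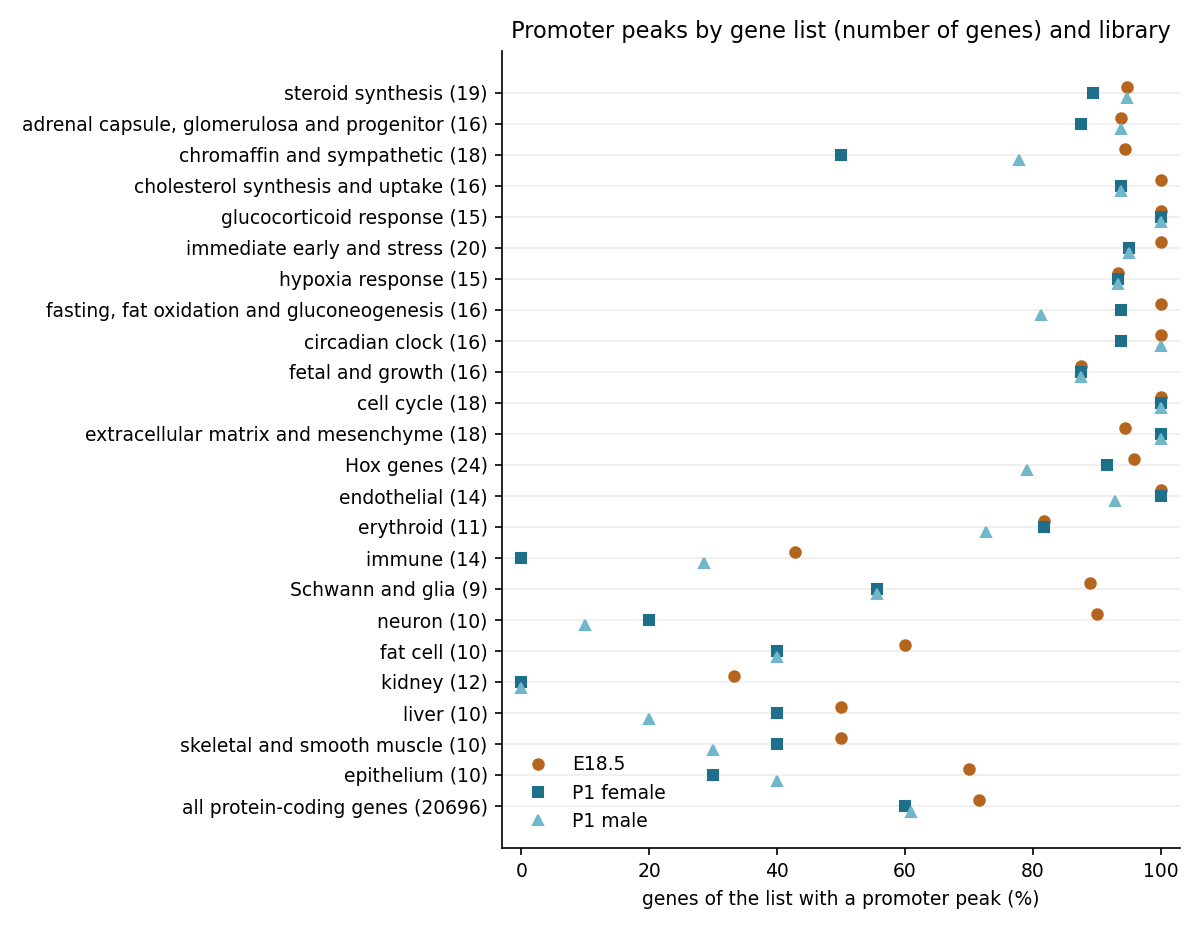
Percentage of the genes of each list with a promoter peak in the E18.5 list (circles), P1 female list (squares) and P1 male list (triangles); the number of genes is in brackets. Neuron genes were called in 9 of 10 cases at E18.5, 2 in P1 females and 1 in P1 males, while glucocorticoid response and cell cycle genes were called in full in all 3 lists.

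By −log10 q, common regions kept much of their order across birth. Across the 23338 common regions the Spearman correlation of −log10 q was 0.808 between E18.5 and P1 females and 0.839 between E18.5 and P1 males, against 0.906 between the P1 libraries. By the share of the region covered by peaks the correlations were −0.325 and −0.257 between E18.5 and the P1 lists and 0.269 between the P1 lists. The borders of a region come from the same 3 lists, so a wide peak in 1 list lowers the covered share of the others. The covered share therefore cannot show whether the order was kept. All these correlations are descriptions across regions, which are not replicates. The widest common region, 48653 bp, spanned the start sites of Hoxb3 to Hoxb8 on chromosome 11 and had 11.9 at E18.5, 8.16 in P1 females and 11.0 in P1 males. Next were a region of 29735 bp at Nr2f2, an orphan nuclear receptor of mesenchyme (21.6, 8.67 and 10.8), and one of 28104 bp within Zbtb16 (2.64, 4.77 and 5.28). Regions at Tpst2 (27754 bp) and at the endothelial gene Egfl7 (23748 bp) completed the 5 widest.

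Within the common regions, 1485 (6.36%) ranked at least 20 percentile points higher in both P1 lists than at E18.5, and 1385 (5.93%) at least 20 points lower. The P1 lists themselves differed by at least 20 points at 2635 regions (11.3%). Regions ranked higher had a median GC of 49.8% and those ranked lower 54.8%, against 53.8% for all, and the mean rank difference went down with GC (Spearman −0.218). The part of GC in these shifts was not tested. Ranked by the share of the region covered by peaks in place of −log10 q, a measure with the limit given above, 5159 and 6179 regions shifted that far.

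The promoters with the largest rise in rank were led by Ifi27, an interferon-induced gene, with a −log10 q of 1.35 at E18.5, 10.2 in P1 females and 13.8 in P1 males (ranks 7.36, 85.2 and 86.4 of 100). Ttc26, an intraflagellar transport gene, had 3.37, 20.1 and 21.6, and Cwf19l2 had 2.28, 13.7 and 19.95. Srpk2, a kinase of splicing factors, had 2.28, 14.1 and 17.6. Trim12c, a paralog of Trim12a, had 2.06, 9.82 and 15.99. These promoters were chosen for ranking higher in both P1 lists, so the direction follows from the choice. Med6, Ccdc77 and Ccin completed the 8, and the E18.5 peak at Ccin lies outside 1 kb of its start. In the other direction Ncs1, a neuronal calcium sensor, had 6.79 at E18.5, 1.42 in P1 females and 1.26 in P1 males, and Kif17, a kinesin, had 5.43, 1.17 and 1.22. Bub1, a mitotic checkpoint kinase, had 7.37, 1.63 and 1.26. Tbx20 had 5.17, 1.22 and 1.23, and Aldh1a2, which makes retinoic acid, had 4.61, 1.30 and 1.15. Speg, Ap3b2 and Nkain3 were the others, and at Speg another promoter region had 4.77 and 6.54 at P1. Of these 8, 4 were called in all 4 later lists and 4 in 2 or 3.

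**Figure D5:**
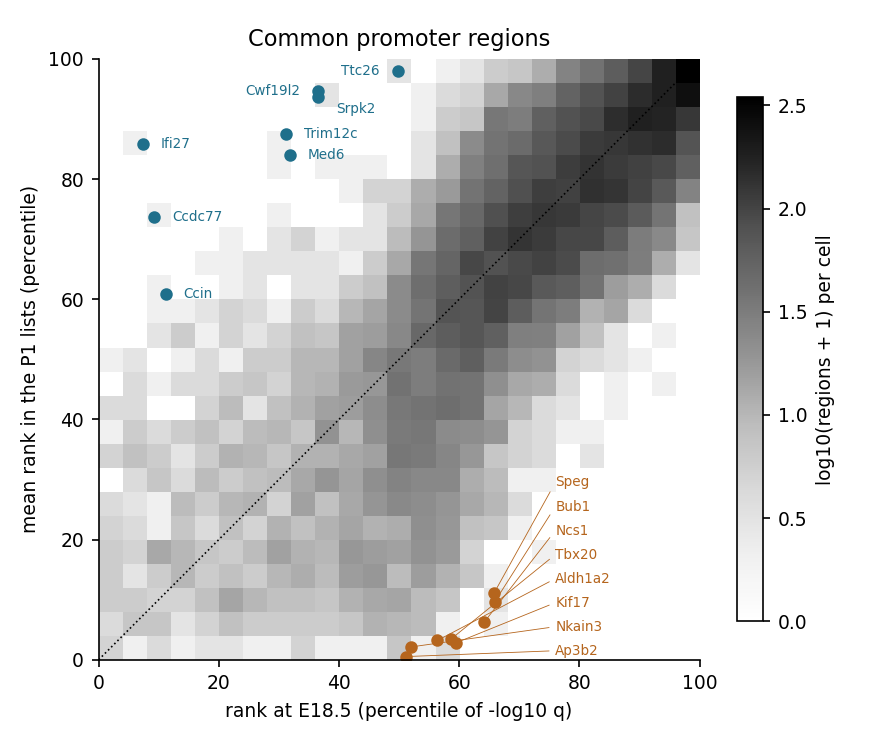
Common promoter regions by rank of −log10 q at E18.5 (horizontal) and mean rank in the P1 lists (vertical), in percentiles; grey cells give log10 of the number of regions plus 1. Named points are the 8 promoters with the largest shift in each direction, with Ifi27 at the upper left and Ncs1 at the lower right.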

How the data were processed

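H3K27ac ChIP-seq had been done on pooled adrenal glands, with 1 library per age and sex. Per the submitters' processing notes the tools were CASAVA 1.8.2, Bowtie2 2.3.4.3, MACS2 2.1.1 and deepTools 3.2.2.0 with build mm10. The control library, duplicate handling and cutoff are not given in the sources used here. The authors deposited 1 broad peak list per ChIP library. Each peak has a deposited score (the whole part of 10 times −log10 q, apart from 1 to 5 peaks per list), a fold enrichment ratio computed by the authors' caller, and −log10 p and −log10 q values from the authors' caller. Because such values vary with depth they served only to rank or filter peaks inside a list. An input library was not used here.

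Peaks of chromosomes 1 to 19 were merged at 1 shared base and a region was called where a peak overlapped it by at least 1 base. In all 7 lists 0 peaks ended past a chromosome of GRCm38, and 58.8% of coding starts lay in E18.5 peaks, against 7.80% after a shift of 100 kb. Promoters lay within 1 kb of 39540 coding starts (GENCODE M21 basic, 20696 genes), and other regions took the nearest start. GC, repeat masking and motifs were read in the central 500 bases. Of 345 genes in 23 lists, 336 are coding genes of these chromosomes. Percentages carry 95% Wilson intervals for counting error. Named were the 8 strongest promoter and distal regions of each one-sided class, the 5 widest common regions, the 8 promoters with the largest rank change each way, the 8 genes with most distal regions of each class, list members in a one-sided class, and defining genes; some items that this rule names are not reported here. Class calls were tested on simulated lists and overlaps against bedtools 2.31.1. Python 3.11.15, numpy 2.4.6 and pandas 2.3.3 were used. The regions, gene lists and motifs were chosen with earlier results of these data known. Alternatives covered thresholds, list length, overlap, merging, bins, chromosomes, promoter window, motif window, rank measure and each P1 library left out. Thresholds on −log10 q applied to all 7 lists, and the shortening of all 7 was added after seeing the data.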

Additional observations from a re-analysis of the deposited data

How the results depend on the processing

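P1-only regions were called more often than E18.5-only regions at both later ages, and E18.5-only regions outnumbered P1-only regions, under every alternative run. With peaks of a −log10 q of at least 2 there were 13548 E18.5-only, 3687 P1-only and 13615 common regions (log2 ratio of the one-sided classes 1.88, against 3.14), and with at least 5 there were 1094, 628 and 7745 (0.801). At least 5 in the defining lists and no peak elsewhere (strong against absent) left 98, 50 and 7745 (0.971). Equal numbers of peaks in the 3 lists gave 21524 E18.5-only regions (0.808) and equal length 29119 (1.40). With 50% of the region covered 11584 were common (2.96), bins of 1 kb gave 128629, 23885 and 51751 (2.43), and the union of 7 lists a ratio of 3.34. Leaving out a P1 library gave 16533 to 20971 P1-only regions and ratios of 1.90 to 2.24.

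The difference in 2-week calls, 76.1 points, was 52.1 at a −log10 q of at least 5, 80.6 for strong against absent, 74.4 with equal numbers and 53.0 with equal length in all 7 lists, and 47.1 to 61.6 with 1 P1 library left out. The difference in 12-week calls, 74.5 points, was 70.5 at 2, 30.7 at 5, 85.7 for strong against absent, 73.1 with equal numbers and 72.99 with equal length in the 3 lists, 68.4 and 25.8 in all 7, 76.1 with 50% covered, 76.2 with gaps of 1 kb merged, 73.6 in bins, 76.7 in the union of 7 lists and 51.5 to 63.7 with 1 P1 library left out. Shortening the later lists removes calls from them by construction.

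The promoter share of P1-only minus E18.5-only regions, −0.696 points, was 10.7 for strong against absent, 13.6 with 50% covered and 6.18 in bins, but −1.71 at 2, −33.0 at 5, −1.61 with equal numbers, −1.52 with equal length, −0.277 with a promoter window of 0.5 kb and −1.84 to −1.20 with 1 P1 library left out. The cause was not tested. That of E18.5-only minus common regions, −44.4, was −64.4 at 2, −17.3 at 5, −74.7 for strong against absent, −53.7 with equal numbers, −51.3 with equal length, −61.0 with 50% covered, −41.8 in bins, −46.5 in the union of 7 lists and −40.5 to −39.6 with 1 P1 library left out. The median GC of P1-only minus E18.5-only regions, −4.8 points, was −3.2 at 2, −11.4 at 5, −9.5 for strong against absent, −3.6 with equal numbers, −4.0 with equal length, −3.2 with 50% covered, −5.2 with gaps merged, −4.6 in bins, −5.4 in the union of 7 lists, and −4.8 to −4.2 with 1 P1 library left out.

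Genes with E18.5-only and P1-only promoters, 2259 and 177, numbered 818 and 272 at 5, 28 and 18 for strong against absent, 1036 and 330 with equal numbers and 1276 and 276 with equal length. With 1 P1 library left out they numbered 2477 to 2669 and 267 to 274. Ranking by covered share moved the counts of common regions higher and lower at P1 to 5159 and 6179. The AP-1 difference, 9.06 points, was 11.1 at 5, 14.5 for strong against absent, 7.98 with 50% covered, 4.45 with windows of 200 bases and 6.67 to 7.90 with 1 P1 library left out. Motif differences that changed sign were CRE 1.64, HAND and ASCL E-box 6.72, TWIST and HAND E-box 2.16, CTCF 2.24 and LHX and HOX −0.780 at 5, and NR3C1 −1.23, CRE 5.56, HAND and ASCL E-box 5.56, HIF −0.926, CTCF 0.617 and LHX and HOX −0.617 for strong against absent. Strong against absent leaves only 98 and 50 regions, promoters included, so its motif differences, that of AP-1 included, can rest on few regions. The ETS difference ranged from −0.0203 without the P1 males to 0.305 without the P1 females. The cause was not tested.

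No paired analysis was possible because each age and sex has 1 library. Peak lists give no depth, so weak regions missing from a list cannot be told apart from regions without the mark.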

Other observations

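Genes of families induced by interferon or acting in innate immunity were among the P1-only promoters. They were chosen after their values were seen, by gene name, so their counts describe these lists and carry no test. Of 92 genes in 12 such groups, 18 had a promoter peak in both P1 lists and not at E18.5 (19.6%), against 0.855% of all coding genes, 3 had one at E18.5 alone (3.26%, against 10.9%) and 43 in all 3 lists. The P1-only members were Ifit1, Ifit1bl2 and Ifit3b of 6 Ifit genes, Ifi203, Ifi204, Ifi211 and Ifi44 of 18 Ifi genes, Gbp4, Gbp5 and Gbp8 of 10 guanylate-binding protein genes, Trim5, Trim12a, Trim30a and Trim30d of 10 genes of the Trim5 cluster, Casp4 and Casp12 of 3 inflammatory caspase genes, and Isg15 and Samd9l. Isg15, a ubiquitin-like modifier, had a −log10 q of 2.50 in P1 females and 2.35 in P1 males, and 4.22 to 12.7 in the later lists. Trim30d had 4.23 and 5.84, with 4.82 to 16.4 later, and Casp12 had 4.79 and 8.42, with 4.47 to 17.7 later. All 18 were called in all 4 later lists. Ifit1 and Ifit1bl2 share 1 peak, as do Gbp4 and Gbp8, and near-identical copies in these families make single positions uncertain. The promoters of these genes are poor in CG, with a median of 7 in 500 bases. P1-only promoters were more frequent among all genes of such composition. Between 40% and 45% GC 11 of 26 family genes were P1-only, against 3.35% of all genes. Between 45% and 50% they were 6 of 24 against 2.67%, and between 50% and 55% 1 of 27 against 0.961%. At 55% GC or more no family gene was P1-only. The sensors Ddx58, Ifih1 and Dhx58 and both Irgm genes were called in all 3 lists, and none of the 9 Slfn genes or 11 Oas genes was P1-only, so the pattern did not extend to every such gene. Among 14 immune cell genes 0 were P1-only.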
